A study of Mus musculus with 6 samples.

Results

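The Ly6 genes encode small cysteine-rich proteins that sit on the outer face of the cell membrane through a glycosylphosphatidylinositol (GPI) lipid anchor. The genes described here are the 7 rows of the per-library tables listed under Ly6a, Ly6c1, Ly6c2, Ly6d, Ly6e, Ly6i and Ly6k, chosen by name, of 24333 genes in all. RNA was sequenced from natural killer (NK) cells sorted out of the spleens of female C57BL/6 mice, with a gate that kept NK1.1+ NKp46+ cells and removed cells carrying CD3 or binding a CD1d tetramer. Mice had been given cytokine complexes of IL-15 (IL-15C, 3 libraries) or of IL-2 (IL-2C, 3 libraries), and the labels give no other allele or agent. In a cytokine complex the cytokine is bound to a carrier that makes it act for longer, here a carrier the labels leave unnamed, and cells of untreated mice were not analysed here. The series title places the work in protection of mice from cerebral malaria by IL-15C-stimulated NK cells, so the comparison asks how NK cells differ between complexes of these cytokines, which share receptor chains.

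Ly6 proteins share a compact disulfide-bonded fold with the urokinase receptor uPAR, and in the mouse a cluster of their genes has multiplied by duplication. Several are used as surface markers of blood cells. Ly6a encodes Sca-1, which marks blood stem cells and is induced on activated lymphocytes and by interferons. Ly6c2 encodes the Ly-6C of inflammatory monocytes, which memory T cells and some NK cells also carry, and Ly6c1 encodes a near copy that is abundant on endothelial cells. Ly6e, also called Sca-2 or TSA-1, is an interferon-induced gene expressed on many immune cells. Ly6d marks lymphoid precursors of the B lineage and B cells, and Ly6k is known from the testis.

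Coding sequences are shown first, because the likeness of these genes decides which rows can be told apart. The first 300 coding bases of the most abundant member, Ly6c2, are set against those of Ly6c1, and the first 150 coding bases of Ly6a and Ly6i show the second pair of close relatives. They were joined over exons from GENCODE M21 transcripts on GRCm38 (mm10), minus strand, at chr15:75108639-75111667 for Ly6c2, chr15:75045498-75048511 for Ly6c1, chr15:74996489-74997604 for Ly6a and chr15:74981923-74983059 for Ly6i. Capitals mark each base that differs from Ly6c2 at the same position.
Ly6c2: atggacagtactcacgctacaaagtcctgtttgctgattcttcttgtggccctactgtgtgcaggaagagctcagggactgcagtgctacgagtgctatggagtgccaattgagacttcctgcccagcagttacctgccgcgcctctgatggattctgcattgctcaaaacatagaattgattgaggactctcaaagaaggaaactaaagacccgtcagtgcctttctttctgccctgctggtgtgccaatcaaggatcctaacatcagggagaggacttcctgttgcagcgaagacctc
Ly6c1: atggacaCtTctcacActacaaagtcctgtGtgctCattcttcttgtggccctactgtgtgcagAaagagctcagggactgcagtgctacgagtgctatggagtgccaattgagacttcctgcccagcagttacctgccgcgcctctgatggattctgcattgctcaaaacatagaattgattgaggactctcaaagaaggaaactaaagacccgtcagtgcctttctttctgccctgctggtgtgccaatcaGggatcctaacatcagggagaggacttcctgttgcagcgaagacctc
Ly6a: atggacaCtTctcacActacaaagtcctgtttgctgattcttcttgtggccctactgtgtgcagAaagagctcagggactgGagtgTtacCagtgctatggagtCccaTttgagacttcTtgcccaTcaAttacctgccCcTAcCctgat
Ly6i: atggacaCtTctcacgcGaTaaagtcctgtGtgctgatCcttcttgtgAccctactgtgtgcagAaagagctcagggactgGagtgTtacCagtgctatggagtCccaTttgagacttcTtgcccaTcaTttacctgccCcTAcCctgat

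Over their whole coding sequences, Ly6c1 and Ly6c2 had 387 identical bases, with 9 differences and a longest identical run of 188 bases. In the stretch of 150 bases, Ly6a differed from Ly6c2 at 16 positions and Ly6i at 20. Compared in full, Ly6a was 86.4% identical to Ly6i, 82.0% to Ly6c1 and 81.7% to Ly6c2, while Ly6e was 50.5% to 53.8% identical to these 4 genes. A search of the annotated transcripts for shared stretches of 50 bases gave the reads that more than a single gene could claim. Such stretches made up 36.7% of the Ly6c1 transcript, most of them shared with Ly6c2, and 33.0% of Ly6c2, most of them shared with Ly6c1. The share was 8.05% for Ly6a, 4.97% for Ly6i, and 0 for Ly6d and Ly6e. At a stretch of 100 bases it was 15.3% for Ly6c1, 15.8% for Ly6c2 and 0 for Ly6a and Ly6i; the read length is unknown. For Ly6k the share was 29.2% at 50 bases and 17.2% at 100 bases, all with Gm17189, an antisense transcript. Strandedness of the libraries is not stated in the labels. The split between Ly6c1 and Ly6c2 therefore depends on how the authors' software assigned shared reads, and these values are uncertain to that extent. At 50 bases, Ly6a shared 4.03% of its stretches with Ly6i, 2.6% with the gene I830127L07Rik and 1.43% with Ly6c1. Of the Ly6c2 stretches, 0.388% were shared with Ly6a. Between Ly6a and these genes the same holds only if fragments were short enough to fall within a shared stretch.

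The libraries were similar in depth. The deposited interval of each estimate implied 23526567 to 27212608 fragments per library, and 14481 to 14685 genes per library had a value above 0. Across genes, the Pearson correlation of log values lay between 0.9908 and 0.9939 for pairs of IL-15C libraries, between 0.996 and 0.997 for pairs of IL-2C libraries, and between 0.9902 and 0.9948 for mixed pairs. The sorted cells carried NK genes at high level, since the 8 NK markers summed to 8306 to 8795 FPKM in IL-15C and 7721 to 8882 FPKM in IL-2C and no marker was called different. FPKM, the authors' unit, counts fragments for each kilobase of a transcript at a common library size, so levels of different genes may be compared. Some transcripts typical of other cells were present too: Cd3g lay between 31.6 and 44.6 FPKM in IL-15C and between 30.7 and 32.9 FPKM in IL-2C, and Lyz2 between 15.1 and 25.5 FPKM in IL-15C and between 12.2 and 20.0 FPKM in IL-2C, while Cd4 and Cd14 were near 0. T cell, B cell, granulocyte and erythroid genes varied between libraries and are given below beside the Ly6 genes.

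Levels of the 7 genes spanned a very wide range in both groups. Ly6c2 and Ly6e together held nearly all of the family's summed level, which was 557, 452 and 462 FPKM in the IL-15C libraries and 351, 330 and 349 FPKM in the IL-2C libraries. Ly6c2 was above Ly6e in every library, by 1.52 times in the IL-15C means and 1.61 times in the IL-2C means. Ly6e exceeded Ly6a by 21.9 times in IL-15C and by 70.1 times in IL-2C. The next place in the order depended on the group. Ly6a was above Ly6c1 in 3 of 3 IL-15C libraries but in 1 of 3 IL-2C libraries, where their ranges overlapped. Ly6c1 and Ly6d also overlapped in IL-2C. Ly6i and Ly6k, the lowest, were close to the limit of detection in every library.

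**Figure D1:**
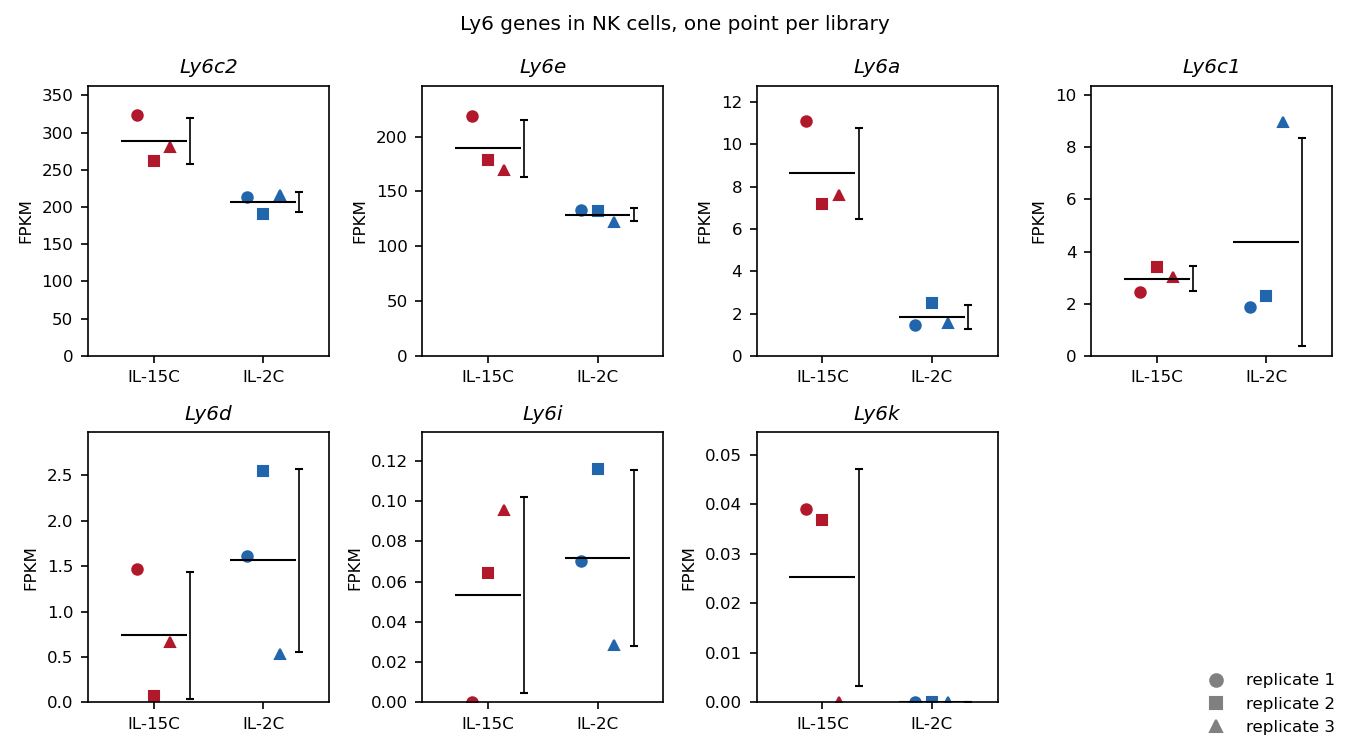
FPKM of the 7 Ly6 genes, a panel per gene with its own axis starting at 0, IL-15C in red and IL-2C in blue; points are libraries with the marker giving the replicate number, lines are means and whiskers ± 1 SD (n = 3 each). All IL-15C points of Ly6c2, Ly6e and Ly6a lie above all IL-2C points, which held for 8.15% of all tested genes, whereas the groups overlap for Ly6c1, Ly6d, Ly6i and Ly6k.

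Ly6a, Ly6c2 and Ly6e were higher in IL-15C than in IL-2C NK cells, and no Ly6 gene was called lower. Of the 7 genes, 5 passed the filter of a mean of at least 1 FPKM over the 6 libraries, and 3 of these 5 were called higher. Over all 9831 tested genes, 1.72% were called higher and 4.72% lower, by limma's moderated test on log2(FPKM + 1) at a Benjamini-Hochberg adjusted p under 0.05. Under a common median for each library the count of genes called was 325 higher and 207 lower in place of 169 and 464, and the same number of Ly6 genes, 3, was called higher. With no filter on level, 0 Ly6 genes were called (limma adjusted p 0.0607 to 0.0779 for these 3). The median change of the 5 tested Ly6 genes was 0.48 on the log2 scale, against -0.04 over all tested genes. In these bulk samples, fewer cells with a transcript and less RNA per cell cannot be told apart. The labels do not tell whether each library is a separate animal, and p-values then reflect how far these samples spread, part of which may be technical.

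Ly6a, the gene of Sca-1 (chr15:74994877-74998031), showed the widest difference. It stood at 11.1, 7.19 and 7.59 FPKM in the IL-15C libraries, against 1.44, 2.51 and 1.56 FPKM in the IL-2C libraries. The lowest IL-15C library was well above the highest IL-2C library, and IL-15C replicate 1 was the highest of all. The means were 8.64 ± 2.18 FPKM in IL-15C and 1.84 ± 0.585 FPKM in IL-2C (SD, n = 3 each), a ratio of 4.7. The log2 change was 1.76 ± 0.17 (SE) with a limma adjusted p of 0.00191, rank 4 among the rises of 9831 genes. Intervals implied 283, 212 and 225 fragments in IL-15C, against 38, 81 and 49 in IL-2C. These sums of 720 and 168 fragments give a rate ratio of 4.6, with exact 95% bounds of 3.88 and 5.47 for counting error alone. The call held without each library in turn, with changes between 1.58 and 1.92. An exact two-sided permutation test of the FPKM values gave p = 0.1, the smallest that 3 libraries against 3 allow.

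Relative to its abundant relatives, Ly6a also took a larger part in IL-15C cells. It made up 2.0%, 1.59% and 1.64% of the summed Ly6 level in IL-15C libraries, against 0.411%, 0.759% and 0.446% in IL-2C libraries. The Ly6a level was 3.45%, 2.74% and 2.7% of that of Ly6c2 in IL-15C, against 0.677%, 1.31% and 0.721% in IL-2C. Neither measure overlapped between the groups, so the members differed unequally. By comparison, Ly6c2 over Ly6e in FPKM was 1.47, 1.47 and 1.65 in IL-15C, against 1.61, 1.45 and 1.77 in IL-2C, with overlap. That overlap is for FPKM only. On implied fragments scaled to library size, the log2 changes were 0.45 for Ly6c2 and 0.25 for Ly6e. The likeness of their changes therefore depended on the measure.

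Ly6c2, the gene of Ly-6C (chr15:75108161-75111949), was the most abundant member. It measured 323, 262 and 281 FPKM in the IL-15C libraries, against 213, 191 and 216 FPKM in the IL-2C libraries. Every IL-15C value was above every IL-2C value. Means were 289 ± 30.9 FPKM in IL-15C and 207 ± 13.5 FPKM in IL-2C (SD, n = 3 each), a ratio of 1.4. The log2 change was 0.48 ± 0.08 (SE), with a limma adjusted p of 0.0185. Implied fragments summed to 22706 in IL-15C and 17768 in IL-2C, a rate ratio of 1.37 with an exact interval of 1.34 to 1.4. Adding Ly6c1 to Ly6c2, which removes the question of how reads were shared out between them, gave a change of 0.46 ± 0.08 and a limma adjusted p of 0.0193.

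Ly6e (chr15:74955051-74959905), the interferon-induced member, differed in the same direction. Its level was 219, 179 and 170 FPKM in the IL-15C libraries, against 133, 132 and 122 FPKM in the IL-2C libraries. The groups did not overlap, and the IL-2C libraries were close together. Means were 189 ± 26.0 FPKM in IL-15C and 129 ± 6.0 FPKM in IL-2C (SD, n = 3 each), a ratio of 1.47. The log2 change was 0.54 ± 0.09 (SE), with a limma adjusted p of 0.0158. Both calls were lost without IL-2C replicate 1 (limma adjusted p 0.0656 for Ly6c2 and 0.0651 for Ly6e) and without IL-2C replicate 2 (0.0848 for Ly6c2 and 0.067 for Ly6e). Over all single omissions the change was 0.39 to 0.54 for Ly6c2 and 0.44 to 0.62 for Ly6e.

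**Figure D2:**
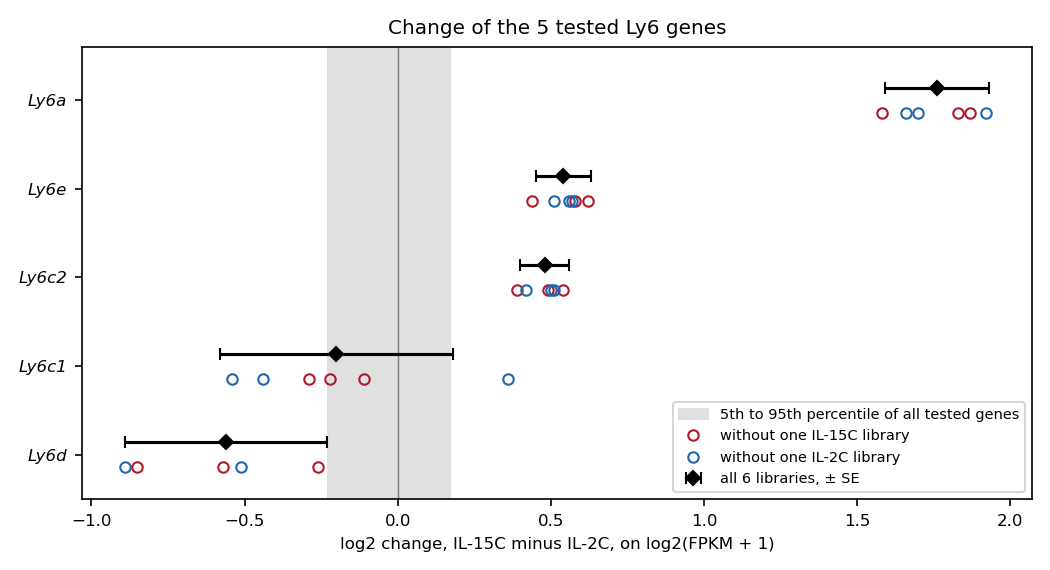
Log2 change of the 5 tested Ly6 genes, IL-15C minus IL-2C, on log2(FPKM + 1): black diamonds are all 6 libraries with whiskers of ± 1 SE, open circles the same value without a single IL-15C library (red) or IL-2C library (blue), and the grey band the 5th to 95th percentile of all 9831 tested genes, -0.23 to 0.17. Ly6a, Ly6e and Ly6c2 stay to the right of the band whichever library is left out, while Ly6c1 has an open circle on each side of 0.

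For Ly6e the size of the difference depended on the measure. The interval of each deposited estimate can be turned into a number of fragments, and this gave 4397, 4051 and 3897 fragments in IL-15C libraries, against 3566, 3698 and 3824 in IL-2C libraries. Scaled to library size these were 187, 165 and 159 implied fragments per 1000000 in IL-15C, against 151, 137 and 141 in IL-2C. The groups still did not overlap, but the log2 change on this scale was 0.25 ± 0.06 (SE, limma adjusted p 0.0451), under the 0.54 of the FPKM scale. The rate ratio of the summed fragments, 12345 and 11088, was 1.19 with an exact interval of 1.16 to 1.22.

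The gap between the measures can be put as the implied fragments behind each FPKM of Ly6e, which were fewer in IL-15C. That quantity restates the gap and gives no source for it. With the median gene of each library set to 1, that quantity was 0.216, 0.229 and 0.23 in IL-15C, against 0.293, 0.261 and 0.286 in IL-2C, a log2 difference of -0.31. Of 9538 genes with a value, 0.0315% had a lower difference, and the 5th to 95th percentile ran from -0.0362 to 0.0973. Ly6c2 and Ly6a had differences of -0.04 and -0.01, the first just beyond that 5th percentile. Ly6c1 had 0.193, 0.192 and 0.197 in IL-15C, against 0.189, 0.196 and 0.259 in IL-2C, so that IL-2C replicate 3 alone stood apart. For a gene with several isoforms the interval can widen with doubt over which isoform a read belongs to, and the transcript length can differ with the isoforms used. These possibilities cannot be told apart from the gene-level values.

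**Figure D3:**
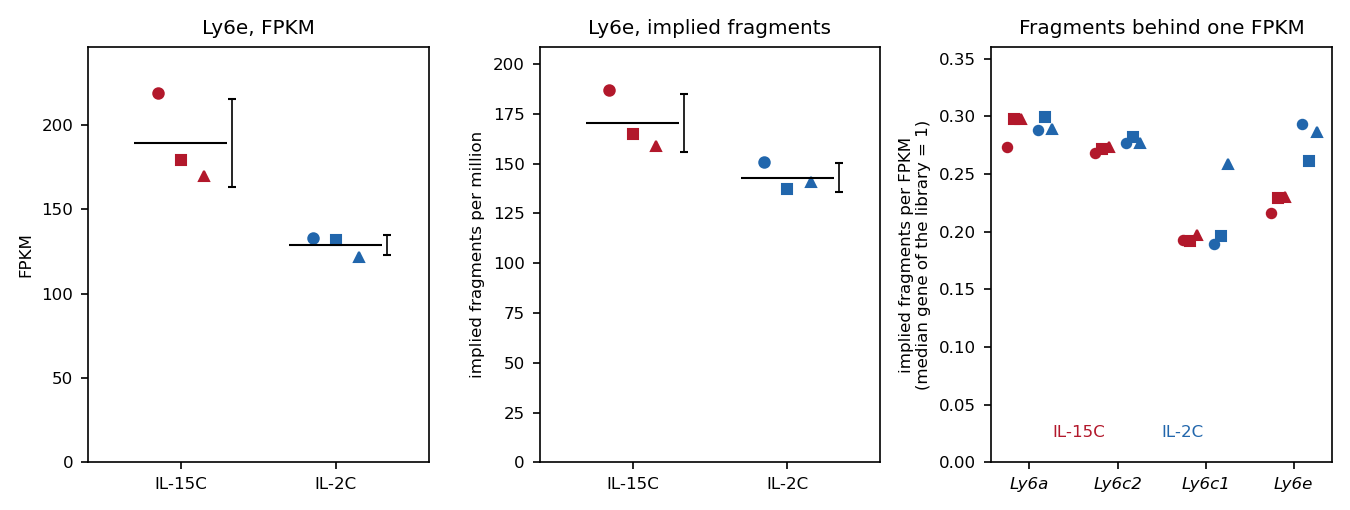
Ly6e in FPKM (left) and in implied fragments scaled to library size (middle), with library points, means and ± 1 SD (n = 3 each), and implied fragments per FPKM relative to the median gene of the library for Ly6a, Ly6c2, Ly6c1 and Ly6e (right); IL-15C is red and IL-2C blue, with circles, squares and triangles for replicates 1, 2 and 3. The IL-15C points of Ly6e lie above the IL-2C points in the left and middle panels and below them in the right panel, where the groups of Ly6c2 and Ly6a lie close together.

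IL-15C replicate 1 was the highest library for Ly6a, Ly6c2 and Ly6e. It also had the highest sums over the granulocyte, erythroid, T cell and monocyte lists, though not for every gene in them. The 8 granulocyte markers in the files, none of them at 0 in all libraries, summed to 109, 40.3 and 53.6 FPKM in IL-15C and 59.2, 54.4 and 40.4 FPKM in IL-2C. The 7 erythroid markers summed to 33.7, 1.87 and 1.87 FPKM in IL-15C and 5.3, 5.71 and 2.34 FPKM in IL-2C. By these sums, the other IL-15C libraries lay at or near the range of the IL-2C libraries. Single genes could differ from the sums. The granulocyte gene Csf3r was at 1.23, 0.995 and 1.21 FPKM in IL-15C and 0.739, 0.834 and 0.701 FPKM in IL-2C. Mpo was at 0.771, 0.272 and 0.48 FPKM in IL-15C and 0.159, 0.148 and 0.151 FPKM in IL-2C. Both were under the filter and were named after their values were seen. The other granulocyte markers overlapped between the groups. The 8 T cell markers summed to 71.9, 58.2 and 50.7 FPKM in IL-15C and 52.7, 57.5 and 54.1 FPKM in IL-2C. None of the 3 tested was called. Cd3g and Cd3d made up most of each sum, and Cd3e was highest in IL-2C replicate 2, at 5.7 FPKM. Without IL-15C replicate 1 all of Ly6a, Ly6c2 and Ly6e were still called higher, with log2 changes of 1.58, 0.39 and 0.44. Monocytes carry Ly-6C in abundance, and the 8 monocyte and macrophage markers in the files summed to 31.0, 21.7 and 22.0 FPKM in IL-15C and 25.3, 23.4 and 17.4 FPKM in IL-2C. The groups overlapped, and most of that sum was Lyz2. The receptor gene Csf1r lay between 0.59 and 0.728 FPKM in IL-15C and between 0.517 and 0.837 FPKM in IL-2C. Cd68 was at 4.41, 5.87 and 5.4 FPKM in IL-15C and 4.11, 4.31 and 4.41 FPKM in IL-2C. Its log2 change of 0.23 ± 0.08 (SE) did not pass (limma adjusted p 0.115).

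Ly6c1 (chr15:75044018-75048837), the near copy of Ly6c2, did not pass the test. It measured 2.45, 3.4 and 3.03 FPKM in the IL-15C libraries and 1.86, 2.28 and 8.98 FPKM in the IL-2C libraries. A single library, IL-2C replicate 3, was far above all others, and the groups overlapped. Means were 2.96 ± 0.481 FPKM in IL-15C and 4.37 ± 3.99 FPKM in IL-2C (SD, n = 3 each). The log2 change of -0.2 ± 0.38 (SE, limma adjusted p 0.764) turned to 0.36 ± 0.11 without that library, where it also missed the threshold (limma adjusted p 0.104). The high value rested on 255 implied fragments, against 44, 65 and 59 in the IL-15C libraries and, among IL-2C libraries, 32 and 48 in the other two. The level of Ly6c2 was 132, 77.1 and 92.8 times that of Ly6c1 in IL-15C, and 115, 84.0 and 24.1 times in IL-2C. Ly6c2 itself stood at 216 FPKM in IL-2C replicate 3, close to the other IL-2C libraries. The 8 endothelial markers summed to 25.1 to 27.8 FPKM in IL-15C and at most 21.4 FPKM in IL-2C. Nearly all of it was Pecam1, which NK cells also express. Pecam1, the only tested marker of the list, was called higher in IL-15C (log2 change 0.31 ± 0.05, SE, limma adjusted p 0.0118). In IL-2C replicate 3 Esam was at 0.114 FPKM, Plvap at 0.06 FPKM and Tek at 0.0043 FPKM, and Cdh5, Kdr, Egfl7 and Cldn5 were listed at 0. Of these 7 genes none exceeded 0.119 FPKM in any library, and the part of endothelial RNA in the Ly6c1 values was not tested.

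Ly6d, the B-lineage member (chr15:74762056-74763567), was low and varied between libraries of the same group. It stood at 1.47, 0.0755 and 0.667 FPKM in the IL-15C libraries and at 1.61, 2.55 and 0.533 FPKM in the IL-2C libraries. The groups overlapped widely, with IL-15C replicate 2 the lowest and IL-2C replicate 2 the highest. The log2 change was -0.56 ± 0.33 (SE), which did not pass (limma adjusted p 0.308; exact two-sided permutation p = 0.3). Leaving out IL-15C replicate 2 gave -0.26, leaving out IL-15C replicate 1 gave -0.85, and leaving out IL-2C replicate 3 gave -0.89, none of which passed. Sums of 56 implied fragments in IL-15C and 130 in IL-2C give a rate ratio of 0.462 with an exact interval of 0.331 to 0.636. That interval covers counting error only and leaves out the spread between libraries, which was wider.

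B cell transcripts varied between the libraries together with Ly6d. The 8 B cell markers summed to 17.4, 5.03 and 8.32 FPKM in IL-15C and 16.6, 24.4 and 9.35 FPKM in IL-2C. Cd79a, a signalling chain of the B cell receptor, was at 2.8, 0.153 and 1.05 FPKM in IL-15C and 2.58, 4.3 and 0.731 FPKM in IL-2C. Ms4a1, the gene of CD20, was at 1.33, 0.0644 and 0.431 FPKM in IL-15C and 1.31, 2.4 and 0.349 FPKM in IL-2C. Both were lowest in IL-15C replicate 2 and highest in IL-2C replicate 2, as Ly6d was, and Ms4a1 was not tested. The tested genes Cd79b and Cd22 were lowest and highest in the same libraries. Unlike Ly6d, they were higher in IL-2C replicate 3 (1.41 and 6.23 FPKM) than in IL-15C replicate 3 (1.27 and 4.45 FPKM). No B cell marker was at 0 in all libraries, and 3 of the 8 were tested with none called. The part of B cell RNA in the Ly6d values was not tested.

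**Figure D4:**
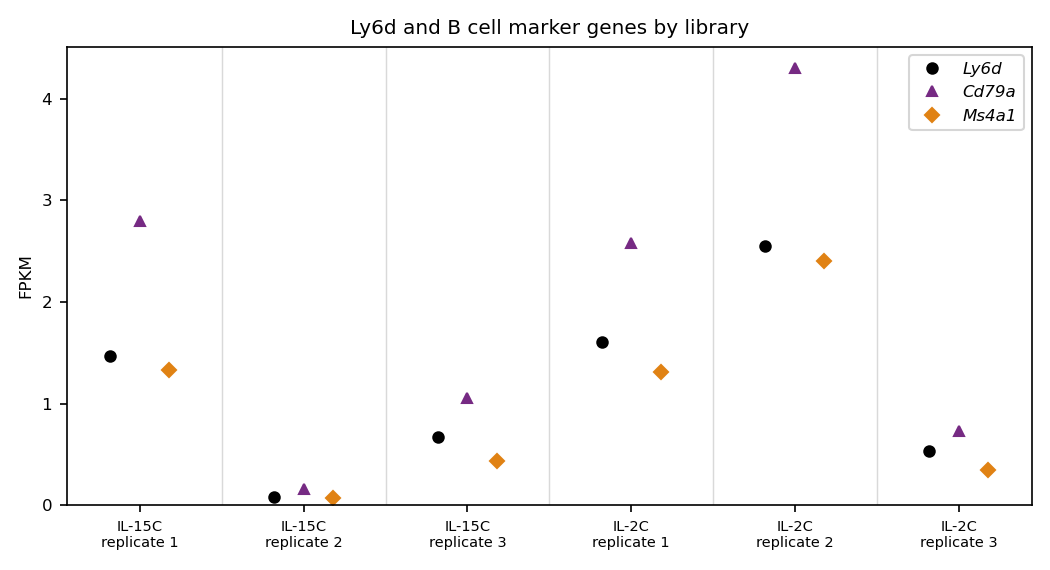
FPKM of Ly6d and of the B cell genes Cd79a and Ms4a1 in each of the 6 libraries, IL-15C on the left and IL-2C on the right, with a point per gene and library. All 3 genes are lowest in IL-15C replicate 2, where Ly6d is at 0.0755 FPKM, and highest in IL-2C replicate 2, where it is at 2.55 FPKM.

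Ly6i and Ly6k were below the filter and entered no model. Ly6i (chr15:74979812-74983430) was listed at 0, 0.0642 and 0.0957 FPKM in IL-15C and 0.07, 0.116 and 0.0286 FPKM in IL-2C. That amounts to 5 implied fragments in IL-15C and 7 in IL-2C, a rate ratio of 0.766 with an exact interval of 0.192 to 2.8, so a difference was not detectable at this depth (exact two-sided permutation p = 0.6). Ly6k (chr15:74796874-74799968) was listed at 0.039, 0.0368 and 0 FPKM in IL-15C and at 0 in all 3 IL-2C libraries. Its 2 implied fragments in IL-15C are within what a count of 0 allows, 3 fragments over the group.

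The authors also deposited group values from Cuffdiff, scaled separately from the per-library tables. In the authors' deposited table Ly6a had 11.7 FPKM (interval 9.03 to 14.3) in IL-15C and 2.41 FPKM (1.45 to 3.37) in IL-2C. For Ly6c2 the authors' deposited table gave 391 FPKM (332 to 449) in IL-15C and 272 FPKM (231 to 313) in IL-2C, and for Ly6e 256 FPKM (217 to 295) in IL-15C and 169 FPKM (144 to 195) in IL-2C. Intervals of the groups did not overlap for these 3 genes in the authors' deposited table and overlapped for Ly6c1, Ly6d and Ly6i. Their ratios there, 4.84, 1.44 and 1.51 for Ly6a, Ly6c2 and Ly6e, differed little from those of the per-library means.

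All 7 genes lie within 349.9 kb of chromosome 15, at chr15:74762056-75111949. This stretch and 100 kb on either side held 22 genes in the files, of which 7 were at 0 in every library and 6 had a mean of at least 1 FPKM. Apart from Ly6 genes, Them6 alone reached that level there. Them6 averaged 7.95 ± 0.848 FPKM in IL-15C and 7.34 ± 0.419 FPKM in IL-2C (SD, n = 3 each), a log2 change of 0.10 ± 0.07 (SE) that did not pass (limma adjusted p 0.402). Within the cluster, the uncalled Ly6c1 lies between the called Ly6a and Ly6c2, and the nearly silent Ly6i lies between Ly6e and Ly6a. Outside that window, 545 kb beyond Ly6c2, Top1mt, the gene of mitochondrial topoisomerase I, was lower. It averaged 9.04 ± 0.426 FPKM in IL-15C and 18.5 ± 2.17 FPKM in IL-2C (SD, n = 3 each), with a log2 change of -0.96 ± 0.07 (SE, limma adjusted p 0.000702). Top1mt was chosen after its values were seen.

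Other members of the wider Ly6 and uPAR family were barely expressed. Of 37 such genes listed, 28 had a row in the files, none passed the filter, and 15 were at 0 in every library. Their summed level was 1.24 to 1.56 FPKM in IL-15C and 1.46 to 1.95 FPKM in IL-2C. Ly6g5b was the highest, at 0.934 ± 0.116 FPKM in IL-15C and 0.851 ± 0.122 FPKM in IL-2C (SD, n = 3 each). Lypd6b was at 0.0948, 0.185 and 0.135 FPKM in IL-15C and 0.308, 0.467 and 0.402 FPKM in IL-2C, and was named after its values were seen.

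Genes that build the GPI anchor, which all of these proteins need to reach the membrane, moved little. Of 31 listed, 29 were tested, 0 were called higher and 1 was called lower, beside background shares of 1.72% and 4.72%, and their median change was -0.03. The called gene was Pigp, a subunit of the enzyme that starts anchor synthesis, at 22.5 ± 1.06 FPKM in IL-15C and 26.5 ± 1.25 FPKM in IL-2C (SD, n = 3 each). Its log2 change was -0.22 ± 0.05 (SE, limma adjusted p 0.037). The call ended under each other scaling (limma adjusted p 0.0532 to 0.0725), without the trend (0.0505), and without any library but IL-15C replicate 1 (0.0676 to 0.139). Pigq, of the same enzyme, and Mppe1, which trims the anchor, had log2 changes of -0.12 and -0.11 and did not pass (limma adjusted p 0.125 for each). With array weights both passed as lower (limma adjusted p 0.0359 for Pigq and 0.0322 for Mppe1). That setting called 1667 of all tested genes lower, against 464 in the fit as reported. On implied fragments the changes of Pigq and Mppe1 were -0.03 and 0.01, and neither passed (limma adjusted p 0.705 and 0.931).

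Among 20 other GPI-anchored surface proteins, 11 were tested and 1, Thy1, was called higher and 0 lower, beside the same background shares of 1.72% and 4.72%, with a median change of 0.14. Thy1, the CD90 antigen, stood at 151, 141 and 122 FPKM in the IL-15C libraries against 77.6, 73.8 and 85.1 FPKM in the IL-2C libraries. The groups did not overlap, and the log2 change was 0.80 ± 0.08 (SE, limma adjusted p 0.00263). Art2b, a GPI-anchored ADP-ribosyltransferase, was at 23.9, 6.83 and 11.3 FPKM in IL-15C and 6.55, 5.56 and 5.01 FPKM in IL-2C and did not pass (limma adjusted p 0.0935). Its log2 change of 1.0 was 0.55 without IL-15C replicate 1 and 1.39 without IL-15C replicate 2, where it passed (limma adjusted p 0.032). Cd52, a small heavily glycosylated antigen, averaged 1231 ± 103 FPKM in IL-15C and 1080 ± 42.1 FPKM in IL-2C and did not pass either (limma adjusted p 0.16).

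Because Ly6a and Ly6e are interferon-induced, a list of 28 other interferon-induced genes was read in the same fit. Of 23 tested, 2 were called higher and 0 lower, beside 1.72% and 4.72% of all tested genes, with a median change of 0.07. Mx1, a GTPase induced by interferon, averaged 14.5 ± 0.833 FPKM in IL-15C and 12.2 ± 0.298 FPKM in IL-2C (SD, n = 3 each), a log2 change of 0.23 ± 0.05 (SE, limma adjusted p 0.034). Ifi27l2a averaged 6.64 ± 0.868 FPKM in IL-15C and 5.06 ± 0.276 FPKM in IL-2C, a change of 0.33 ± 0.08 (SE, limma adjusted p 0.0432). Both calls held without IL-15C replicate 1 and ended without any other library, with limma adjusted p up to 0.127, and that of Ifi27l2a also ended on implied fragments (0.148) and without the trend (0.0508). Gbp2, a guanylate-binding protein gene, had a change of 0.19 and did not pass (limma adjusted p 0.162). On the FPKM scale the changes of Ly6a and Ly6e, 1.76 and 0.54, were above these 3 values. On implied fragments, though, Ly6e, at 0.25, was below Ifi27l2a, at 0.27. The 3 genes were picked by smallest adjusted p, not by size of change, and the other tested genes of the list are not compared here.

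For each called member, the genes with the most similar profile were found among 7555 genes with a mean of at least 5 FPKM, by the mean absolute difference of centred log2(FPKM + 1) values over the 6 libraries. For Ly6c2 they were Capg, an actin-capping protein gene, Slc16a6, a transporter gene, and S100a6, a calcium-binding protein gene, at distances of 0.0218, 0.0587 and 0.0614. Capg measured 19.0, 15.9 and 16.3 FPKM in IL-15C libraries and 12.8, 11.2 and 12.6 FPKM in IL-2C libraries, and in both groups replicate 2 was the lowest, as for Ly6c2. For Ly6e they were the glutaredoxin gene Glrx, Paqr4 and the phospholipid transfer protein gene Pltp, at 0.0492, 0.0543 and 0.066. The nearest genes to Ly6a lay further off, with Lilrb4a, Plac8 and Art2b at 0.37, 0.423 and 0.433. These likenesses are descriptions over 6 libraries that share the same group difference.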

How the data were processed

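RNA was sequenced from sorted mouse NK cells in 6 libraries, 3 IL-15C and 3 IL-2C, grouped and numbered by their titles. The submitters' processing notes name the tools TopHat2 2.0.13 and Cufflinks 2.2.1 and the build mm10; annotation and read length are not given in the sources used here. For each library the authors deposited FPKM values with interval bounds, per the file headers, and a table of Cuffdiff group FPKM values.

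Because FPKM are not counts, count models were not used. For 280 genes with several rows the rows were added up; 10 genes with a failed estimate were dropped. Each interval was read as 2 SD of a Poisson count on either side of the estimate, which gives implied fragments. Among rows of 5 to 200 implied fragments, 29.4% to 31.3% per library came within 0.02 of a whole number, so whole reads were not recovered.

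The test was limma 3.58.1 (R 4.3.3) with an intensity trend on log2(FPKM + 1), two-sided, over genes with a mean of at least 1 FPKM, with a Benjamini-Hochberg threshold of 0.05. The log2(FPKM + 1) scale understates changes of low genes. Changes are IL-15C minus IL-2C. The script was tested on simulated data. Alternatives were other pseudocounts, filters, scalings and weights, a replicate block, implied fragments, Ly6c1 and Ly6c2 summed, and each library left out.

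Named are the Ly6 genes, up to 3 tested genes per list with the smallest adjusted p, genes of the locus with a mean of at least 1 FPKM, and the 3 genes most like each called member; others are said to be chosen later. Of the cell type lists, only genes a result turns on are named, and a result is not reported here. Plasmacytoid dendritic cell markers summed to 6.91 to 7.89 FPKM in IL-15C and 6.87 to 7.41 FPKM in IL-2C. The members and lists were chosen with earlier results of these data known, and the endothelial list after the Ly6c1 values were seen. Loci are those of the files, 1-based. Transcripts came from GENCODE M21 (the APPRIS principal transcript of each gene). Tables and plots used Python 3.11.15, with matplotlib 3.10.9, scipy 1.17.1, numpy 2.4.6 and pandas 2.3.3.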

Additional observations from a re-analysis of the deposited data

How the results depend on the processing

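Ly6a was called higher under 17 of 18 alternatives, Ly6c2 and Ly6e under 15 of 18 each, and none of the 3 changed sign. Without the filter, 16313 genes entered the limma fit, 6 were called higher and 9 lower, and 0 Ly6 genes were called (adjusted p 0.0607 for Ly6a, 0.0779 for Ly6c2 and 0.074 for Ly6e, with a Ly6a change of 1.76). In the fit as reported, 2643 genes had an unadjusted p under 0.05. Scaling moved the split of calls. There were 325 higher and 207 lower under a common median, 307 and 269 under quantile normalization, and 204 and 326 under a common sum, each with 3 Ly6 genes higher. Array weights gave 440 higher and 1667 lower, and called 1 Ly6 gene lower, Ly6d (-1.07, limma adjusted p 0.0275). Ly6d averaged 0.736 FPKM in IL-15C and 1.56 FPKM in IL-2C, so it passed the filter only through its IL-2C values. Its call is therefore not read as a difference. Leaving out single libraries gave 14 to 175 genes higher, 15 to 572 lower and 1 to 3 Ly6 genes higher; it was 1 when either of the first 2 IL-2C replicates was left out. The change of Ly6c1 ran from -0.54 to 0.36 over single omissions. Its sign turned to 0.08 under array weights and 0.36 without IL-2C replicate 3, and that of Mppe1 to 0.01 with implied fragments. The sum of Ly6c1 and Ly6c2, nearly all of it Ly6c2, changed by 0.46 and gives no value for Ly6c1 alone. Ly6d had no value without IL-2C replicate 2, where it fell below the filter. The causes of these shifts were not tested.

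The labels do not tell whether same-numbered libraries are paired. Their deviations from the group means correlated at -0.0292, -0.156 and -0.0244. These values cannot decide it, since deviations from a mean of 3 libraries depend on each other. With the replicate block, 171 genes were called higher and 346 lower, and the 3 Ly6 genes stayed called (limma adjusted p 0.0119 for Ly6a and 0.0136 for Ly6c2 and Ly6e), while Pigp was not (0.0517). Depth limits Ly6i and Ly6k, at 0 to 4 implied fragments per library, and Ly6c1 and Ly6d in most libraries.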
